A study of Mus musculus with 7 samples.

Results

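The genes described here are 7 subunits of the GABA-A receptor: Gabra2, Gabra3, Gabra4 and Gabra5 (alpha subunits), Gabrb1 and Gabrb2 (beta subunits) and Gabrd (the delta subunit). They were taken by gene name from the 38924 gene records of the deposited count table, and their 84 exon bins from the 359565 bins of the deposited exon-bin files; an exon bin is a non-overlapping piece of a gene's annotated exons. Polyadenylated RNA of dissected adult mouse hippocampus had been sequenced as 7 libraries in 3 groups: wild-type Ammon's horn (the CA fields, n = 3), Ammon's horn of mice homozygous for a deletion of Khdrbs3 (n = 3), and wild-type dentate gyrus (n = 1). Khdrbs3, called Tstar in the strain label, encodes an RNA-binding regulator of splicing. Every library carries the same strain label, a Tstar null allele crossed back to C57Bl6 for 8 generations, and the labels give no sex. Nothing says that the libraries of a group came from separate animals, so the p-values measure only the spread between these libraries, which may be technical.

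GABA-A receptors are pentameric chloride channels opened by GABA, the main inhibitory transmitter of the adult brain. Most hold alpha and beta subunits, which together form the GABA binding site, with a gamma subunit at synapses or a delta subunit away from them. The alpha subunit sets where the receptor sits and which drugs it binds: alpha-2 and alpha-3 receptors are mostly synaptic, alpha-5 receptors of hippocampal pyramidal cells are largely extrasynaptic, and alpha-4 pairs with delta in extrasynaptic receptors of dentate granule cells that respond to low ambient GABA and to neurosteroids.

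The coding stretch below is shown because it marks the residue by which Gabra4, the alpha gene found higher in the dentate gyrus, differs in drug sensitivity from the other alpha genes described. In a codon alignment of the 7 coding sequences there was 1 column in which Gabra2, Gabra3 and Gabra5 share a codon for histidine and Gabra4 has one for arginine. As background, a histidine here is needed for binding of diazepam and related benzodiazepines, and alpha-4 receptors are insensitive to them. Each line gives 39 bases of the coding strand, 5′ to 3′, from GENCODE M21 transcripts on mm10, with that codon in capitals.
Gabra2: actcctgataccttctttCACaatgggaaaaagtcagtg
Gabra3: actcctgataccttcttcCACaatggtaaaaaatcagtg
Gabra4: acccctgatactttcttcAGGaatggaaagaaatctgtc
Gabra5: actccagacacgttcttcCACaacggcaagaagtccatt

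Counted from 1 at the 5′ end of the stretch, Gabra4 differs from Gabra2 within the codon by C19A, A20G and C21G, and at 11 positions over the 39 bases. Gabra3 differs from Gabra2 at 3 positions and Gabra5 at 10, none of them within the codon. Over whole coding sequences the alpha genes were 58.6 to 68.7% identical to one another. Gabra4 was the most distant of the 4, at 58.6 to 59.4%, the 2 beta genes were 71.0% identical, and genes of different classes were 43.6 to 53.0% identical. The stretch lies in the 221-bp exon of Gabra2 (chr5:71014487-71014525), Gabra4 (chr5:71641134-71641172) and Gabra5 (chr7:57488873-57488911), and in a 115-bp bin of Gabra3 (chrX:72501150-72501188), all on the minus strand.

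Of the 7 genes, 3 lie on chromosome 5 of mm10. Gabra2 (ENSMUSG00000000560.5) runs from 70961057 to 71095849 on the minus strand, and Gabra4 (ENSMUSG00000029211.7) from 71569734 to 71658308 on the minus strand. Gabrb1 (ENSMUSG00000029212.7) runs from 71699932 to 72138389 on the plus strand, 41.6 kb from the 5′ end of Gabra4. Gabra3 (ENSMUSG00000031343.7) is on the X chromosome from 72432681 to 72656848, minus strand. Gabra5 (ENSMUSG00000055078.6) is on chromosome 7 from 57407690 to 57510009, minus strand. Gabrb2 (ENSMUSG00000007653.6) is on chromosome 11 from 42419757 to 42629028, plus strand. Gabrd (ENSMUSG00000029054.2), the shortest of the 7, is on chromosome 4 from 155384980 to 155398112, minus strand.

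The 7 subunits took 31042 to 41041 of the 50230733 to 67692326 gene counts in a library, and bin reads came to 29698245 to 39904606. The deleted part of Khdrbs3 was checked in its second exon bin, which took 11 to 11.7% of that gene's bin reads in the wild-type Ammon's horn libraries, 0.0544 to 0.0757% in those of the knockout and 11% in the dentate gyrus. The tissue labels were checked with markers. The 8 granule cell markers summed to 889 CPM (a gene's count relative to the TMM-scaled total of its library) in the dentate gyrus against 169 to 207 in wild-type Ammon's horn, and the 6 markers of CA1 pyramidal cells to 85.9 against 595 to 617. Knockout libraries 1 and 3 stand apart by the sum of 10 choroid plexus markers, at 809 and 751 CPM against 26.6 in knockout library 2 and 28.7 to 160 in wild-type Ammon's horn.

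In the Ammon's horn of mice without Khdrbs3, none of the 7 subunit genes passed the test for a change. The libraries of both genotypes overlapped for each of them. Over all genes tested, all knockout libraries were above the wild type for 6.81% and all below for 6.44%. Most genes thus overlapped, and overlap in all 7 members does not set them apart. Gabra5, the alpha subunit of pyramidal cell extrasynaptic receptors, was at 186, 184 and 195 CPM in the wild type and at 173, 191 and 189 CPM in the knockout. Gabra2, a synaptic alpha subunit, was at 132, 112 and 142 CPM in the wild type and at 118, 132 and 122 CPM in the knockout. The spread of the wild-type libraries alone covered all 3 knockout values of Gabra2. Gabra3, the second synaptic alpha subunit, was at 103, 93.6 and 85.2 CPM in the wild type and at 99.7, 94.3 and 94.4 CPM in the knockout. Gabra4, the alpha subunit that pairs with delta, was at 61.8, 62.9 and 65.2 CPM in the wild type and at 62.4, 67.0 and 66.6 CPM in the knockout. Gabra4 was the tightest of the 7 in the wild type, with a coefficient of variation of 2.69%.

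The beta subunits, which are needed for receptor assembly and carry part of the GABA site, also overlapped between the genotypes. Gabrb1 was at 44.7, 43.4 and 57.4 CPM in the wild type, and at 50.6 CPM in each of the 3 knockout libraries. Wild-type library 3 alone set the wild-type spread of Gabrb1, whose coefficient of variation was 15.9%. Gabrb2 was at 70.5, 64.6 and 75.4 CPM in the wild type and at 64.7, 78.0 and 78.4 CPM in the knockout. Gabrd, the delta subunit, was at 9.68, 10.5 and 11 CPM in the wild type and at 9.5, 9.69 and 11.2 CPM in the knockout.

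**Figure D1:**
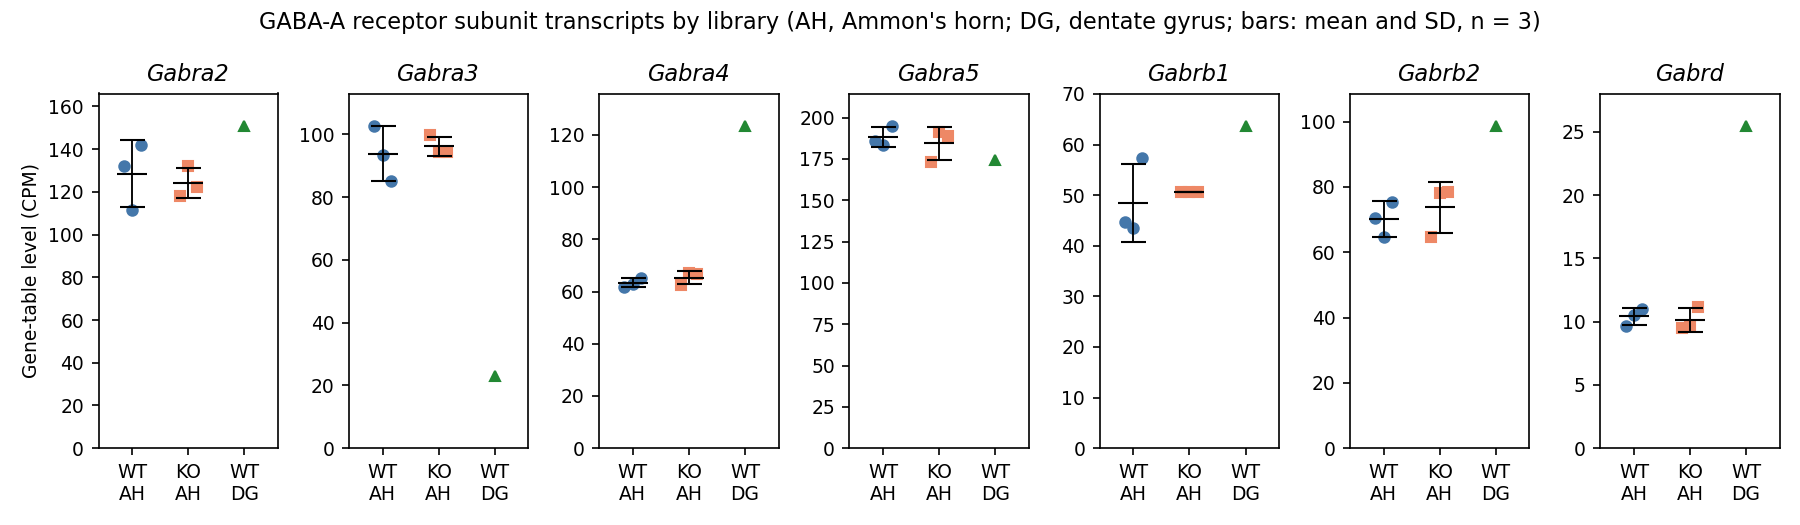
Level of each subunit gene in the gene table (CPM, linear axis from 0), 1 panel a gene, in wild-type Ammon's horn (circles), knockout Ammon's horn (squares) and wild-type dentate gyrus (triangle), with mean and SD of the 3 libraries where there are 3. The knockout points overlap the wild-type points in all 7 panels, while the dentate gyrus lies far above them for Gabra4 (124) and Gabrd (25.5) and far below for Gabra3 (23.1).

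All 7 members passed the low-count filter in both gene fits. With edgeR's quasi-likelihood test over 22830 genes, 0 of the 7 members had an adjusted p under 0.05, against 0.0745% of all genes tested (17 genes), and 0 had an unadjusted p under 0.05, against 8.38% of all genes. DESeq2 and limma-voom also called 0. The members' log2 fold changes (knockout minus wild type) were 0.07 (SE 0.08) for Gabrb2, 0.06 (SE 0.09) for Gabrb1 and 0.05 (SE 0.05) for Gabra4, the 3 highest. They were -0.05 (SE 0.08) for Gabra2, -0.04 (SE 0.09) for Gabrd and -0.03 (SE 0.06) for Gabra5, the 3 lowest, with 0.04 (SE 0.07) for Gabra3 between them. The 95% intervals of the fold reached from 0.840-fold, the lower bound for Gabrd, to 1.20-fold, the upper bound for Gabrb1, and the narrowest, that of Gabra4, ran from 0.957- to 1.11-fold. Differences within a gene's own interval were not detectable with these libraries. The median absolute log2 fold change was 0.05 over the 7 members and 0.09 over all genes tested.

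Markers of other cells moved with genotype or with library. Besides the choroid plexus sum, the 6 oligodendrocyte markers summed to 3766 to 3861 CPM in the wild type and 3165 to 3388 CPM in the knockout, with 1 of 6 called. The sums of 3 other lists also did not overlap between the genotypes, with 0 markers called: CA1 pyramidal cells at 595 to 617 CPM in the wild type and 545 to 584 CPM in the knockout, microglia at 230 to 242 and 200 to 209 CPM, and neocortex and subiculum at 178 to 192 and 194 to 205 CPM. With the choroid plexus markers as a covariate the 7 log2 fold changes ran from -0.05 (Gabrd) to 0.13 (Gabrb2), and with knockout libraries 1 and 3 left out together from -0.10 (Gabrd) to 0.15 (Gabrb2). Again 0 of 7 were called in either fit. The part of oligodendrocytes and of the cells of these 3 lists was not tested.

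In the wild-type dentate gyrus the subunits differed in direction. Both members of the extrasynaptic pair, Gabra4 and Gabrd, were higher, Gabra3 was much lower, the beta subunits were modestly higher, and Gabra2 and Gabra5 did not pass the test. Gabrd stood at 25.5 CPM in the dentate gyrus, above the 9.5 to 11.2 CPM of all 6 Ammon's horn libraries. Gabra4 stood at 124 CPM, above the 61.8 to 67.0 CPM of Ammon's horn. Gabra3 stood at 23.1 CPM, below the 85.2 to 103 CPM of Ammon's horn. For these 3 genes the dentate gyrus was well clear of every Ammon's horn library.

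With the fit over all 7 libraries, Gabrd was 2.45-fold higher (log2 fold change 1.29, SE 0.12, adjusted p 5.4e-05 by edgeR). Gabra4 was 1.95-fold higher (0.96, SE 0.07, adjusted p 9.1e-06), and Gabra3 was 4.06-fold lower (-2.02, SE 0.11, adjusted p 2.4e-06). Gabrb2, at 98.7 CPM against 64.6 to 78.4 CPM in Ammon's horn, was 1.41-fold higher (0.49, SE 0.11, adjusted p 0.0096). Gabrb1, at 63.7 CPM against 43.4 to 57.4 CPM, was 1.31-fold higher (0.39, SE 0.13), and its adjusted p of 0.0478 lay just under the threshold. The call of Gabrb1 was made in 4 of 13 alternative fits and lost in 9, among them the fits on exon-bin sums (adjusted p 0.0892), without wild-type library 1 (0.0991) and without wild-type library 2 (0.0907).

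Gabra2, at 151 CPM against 112 to 142 CPM, lay above all 6 Ammon's horn libraries but did not pass the test (log2 fold change 0.23, SE 0.12, adjusted p 0.186). Gabra5, at 174 CPM against 173 to 195 CPM, lay within the range of Ammon's horn (-0.11, SE 0.08, 95% interval -0.29 to 0.07, adjusted p 0.391). Thus 5 of 7 members were called, against 22.0% of the 24486 genes tested: 4 of 7 higher, against 11.2%, and 1 of 7 lower, against 10.9%. The dentate gyrus lay above all 6 Ammon's horn libraries for 5 of 7 members, against 28.5% of genes, and below all 6 for 1, against 28.3%. Among calls of at least 2-fold there was Gabrd on the higher side (2.22% of genes) and Gabra3 on the lower side (1.76%). The median absolute log2 fold change was 0.49 over the members and 0.29 over all genes. The members were chosen with earlier results of these data known. Their shares and median therefore describe these 7 genes only and do not measure how often GABA-A subunits differ. The dentate gyrus had 1 library and its spread was taken from Ammon's horn, so no call in this comparison has a replicate of the tissue. Both comparisons use the same 3 wild-type Ammon's horn libraries.

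**Figure D2:**
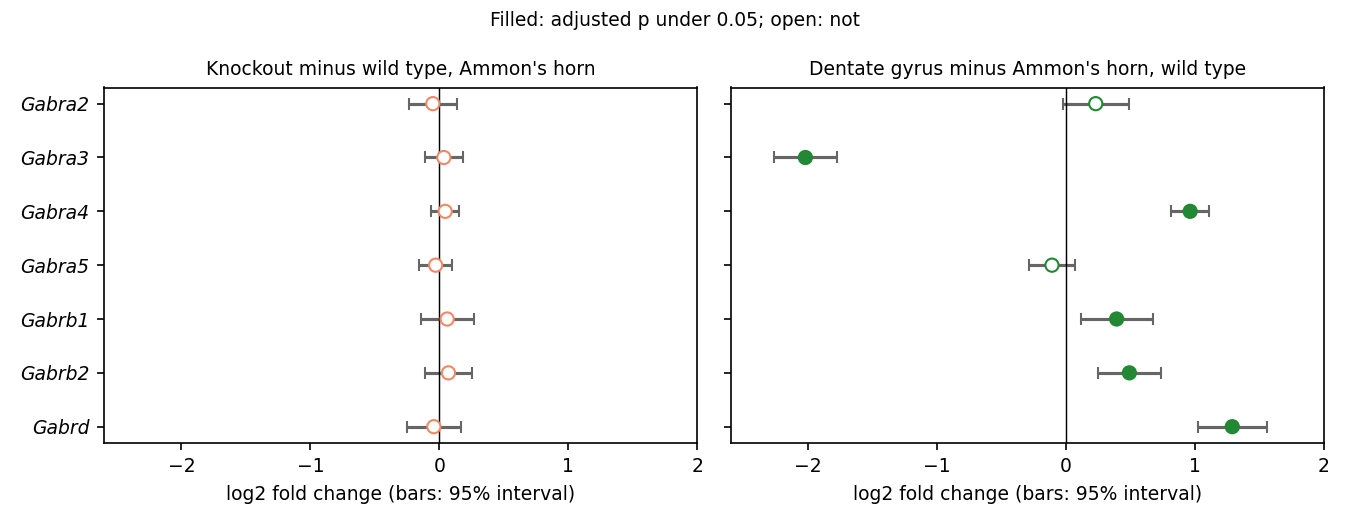
Log2 fold change of each subunit gene with its 95% interval, for the knockout against wild-type Ammon's horn (left) and for the dentate gyrus against wild-type Ammon's horn (right), filled where the adjusted p was under 0.05. All 7 intervals on the left cross 0, and on the right Gabrd (1.29), Gabra4 (0.96) and Gabra3 (-2.02) lie farthest from it.

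Cell markers differed between the tissues alongside these genes. Beside the granule cell and CA1 sums given above, 8 of 8 granule cell markers were called higher and 6 of 6 CA1 markers lower. The 7 markers of CA2 and CA3 pyramidal cells summed to 441 CPM in the dentate gyrus against 464 to 515 CPM in wild-type Ammon's horn. Of them, 2 were called higher (Coch and Cpne4) and 1 lower. The lower one, Nrip3, weighs heavily in the sum, at 143 CPM against a wild-type Ammon's horn mean of 233 CPM. The 12 interneuron markers summed to 894 CPM against 961 to 991 CPM, with 2 called higher and 7 lower, and the 6 oligodendrocyte markers to 1329 CPM against 3766 to 3861 CPM. The 7 markers of thalamus and habenula summed to 187 CPM against 66.6 to 88.6 CPM. Of this, Calb2, a calcium-binding protein also found in some hippocampal cells, made up 120 CPM, against a mean of 16.5 CPM in wild-type Ammon's horn. Calb2 is also in the interneuron list, whose sum it raises, and was called higher there with Reln. Among the 7 interneuron markers called lower, Sst was at 63.5 CPM against a mean of 138 CPM. The 10 choroid plexus markers summed to 274 CPM against 28.7 to 160 CPM, with 0 called; with them as a covariate the calls of Gabrd, Gabra4, Gabra3 and Gabrb2 were made again and that of Gabrb1 was not (adjusted p 0.0517). No marker of these lists was at 0 in the dentate gyrus. In bulk tissue, fewer cells of a type and less RNA per cell cannot be told apart, and the part of cell makeup in the subunit differences was not tested.

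Levels of different subunits can be compared only per length. Exon-bin reads were therefore divided by the summed bin length (reads per kilobase, scaled as CPM). That length includes annotated bins with few reads, which lowers the level of a gene that has them. Examples are bin 12 of Gabrb2, 2128 of its 6246 bp, and bin 5 of Gabrd, 595 of its 2875 bp. In wild-type Ammon's horn the order was Gabra5 (80.3 ± 1.56, SD, n = 3), Gabra2 (65.2 ± 7.67), Gabra3 (27.4 ± 2.53), Gabra4 (17.0 ± 0.769), Gabrb2 (13.2 ± 1.20), Gabrb1 (11.6 ± 3.2) and Gabrd (5.52 ± 0.295). Only Gabrb2 and Gabrb1, at 12.2 to 14.5 and 9.76 to 15.3, overlapped among neighbours in that order. In the knockout the order was the same, from Gabra5 at 78.3 ± 4.27 (SD, n = 3) to Gabrd at 5.13 ± 0.413. In the dentate gyrus Gabra2 (76.5) and Gabra5 (75.2) were next to each other at the top, and Gabra4 (34.0) came next. They were followed by Gabrb2 (19.1), Gabrb1 (16.1), Gabrd (12.8) and Gabra3 (5.54), which moved from the third place to the last. With only coding bins of at least 50 bp, Gabrd (25.4) was close to Gabrb1 (26.1) in the dentate gyrus. The places of Gabra4 and Gabrb2 in wild-type Ammon's horn, and of Gabra2 and Gabra5 in the dentate gyrus, were exchanged when only coding bins of at least 50 bp or a single exon of equal length were used.

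That exon is 83 bp long in all 7 genes and forms 1 bin in each, which allows a direct comparison of reads. Among the reads of the 4 alpha genes in it, Gabra5 took 48.5% ± 2.93 (SD, n = 3) in wild-type Ammon's horn, Gabra2 29.2% ± 3.32, Gabra3 13.0% ± 0.989 and Gabra4 9.30% ± 0.556. In the knockout the shares were 48.2% ± 1.75 (SD, n = 3), 28.0% ± 0.397, 12.7% ± 1.04 and 11.2% ± 0.890 in the same order. In the dentate gyrus Gabra5 took 45.1% (95% Clopper-Pearson interval 42.2 to 48.0%) and Gabra2 33.5% (30.8 to 36.3%), while Gabra4 took 18.4% (16.3 to 20.8%) and Gabra3 2.99% (2.09 to 4.13%). These intervals cover counting error only. The share of Gabra4 was above and that of Gabra3 below every Ammon's horn library, and the 2 genes exchanged places.

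**Figure D3:**
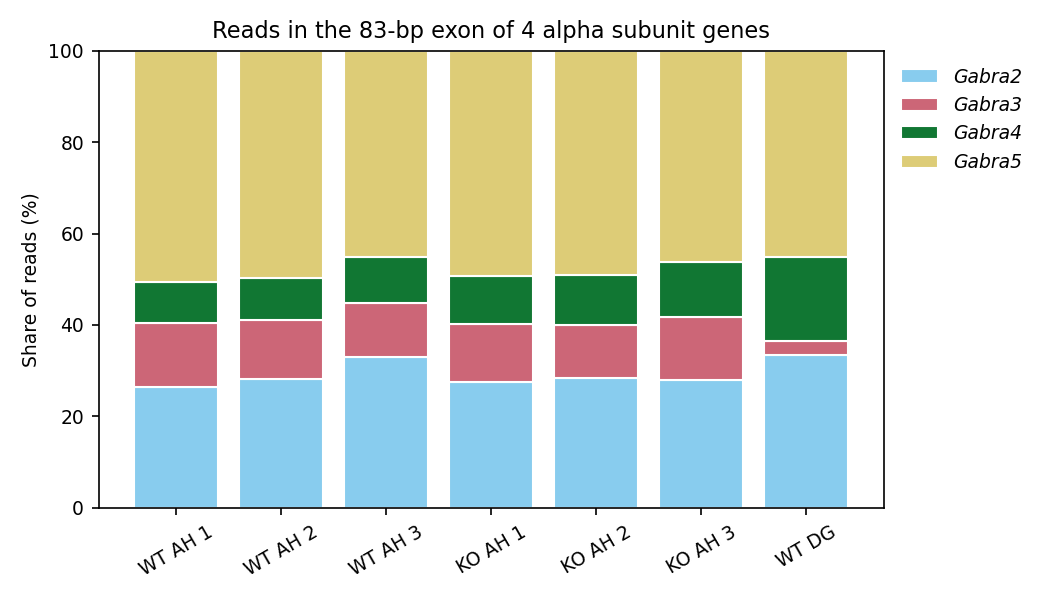
Share (%) of the reads in the 83-bp exon that came from each of the 4 alpha subunit genes, 1 bar a library. Gabra5 and Gabra2 together fill most of each bar, and in the dentate gyrus Gabra4 widens to 18.4% while Gabra3 narrows to 2.99%.

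Ratios of reads in this exon describe how pairs of subunits moved. Per read of Gabra3, Gabra4 had 0.638 to 0.830 reads in wild-type libraries and 0.810 to 0.957 in knockout libraries of Ammon's horn, and 6.17 in the dentate gyrus (216 against 35 reads). Per read of Gabra4, Gabrd had 0.366 to 0.518 reads in Ammon's horn of the wild type and 0.505 in the dentate gyrus, on 41 to 56 and 109 reads of Gabrd. In that exon alone the dentate gyrus ratio lay within the wild-type range. With all bins per length the ratio of Gabrd to Gabra4 was 0.321 to 0.331 in the wild type and 0.376 in the dentate gyrus, and with gene counts (CPM) it was 0.157 to 0.169 and 0.206, so on both scales the dentate gyrus lay above every wild-type library. In the knockout the ratio in the 83-bp exon was 0.248 to 0.357, below the wild-type range, on 29 to 37 reads of Gabrd. With all bins per length it was 0.264 to 0.311, also below the wild-type range on that scale. With gene counts it was 0.144 to 0.168, which overlapped the wild type. For single genes, all knockout libraries lay below the wild type for 6.44% of genes tested, and the share of gene pairs was not computed. Neither Gabrd nor Gabra4 was called in the knockout. The 83-bp bin of Gabrd had the smallest unadjusted p of that gene's bins in the knockout test (0.162, adjusted p 1.0), so its usage difference was not a call. Per read of Gabrb1, Gabrb2 had 1.27 to 1.92 reads in Ammon's horn of the wild type and 1.32 in the dentate gyrus.

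Exon usage was tested bin by bin, because the deleted gene regulates splicing. Of the members' 84 bins, 72 had at least 10 reads in at least 3 libraries and were tested: all bins of Gabra2, Gabra4, Gabra5 and Gabrb1, 12 of 15 of Gabra3, 13 of 16 of Gabrb2 and 9 of 15 of Gabrd. In the knockout 0 of 72 bins were called by edgeR's diffSpliceDGE, against 0.00301% of 166154 bins tested, and 0 had an unadjusted p under 0.05. In limma-voom with diffSplice 0 were called and 1 had an unadjusted p under 0.05. The smallest p of the members was 0.0576 for bin 4 of Gabrb2 (adjusted p 1.0), a 31-bp non-coding bin at the 5′ end of the gene (chromosome 11, 42421279 to 42421309). It held 43, 47 and 65 reads in the wild type and 38, 43 and 31 in the knockout, that is 1.77% ± 0.225 and 1.32% ± 0.164 of the gene's bin reads (SD, n = 3 each). The other members' smallest edgeR p-values in the knockout were 0.162 for bin 7 of Gabrd and 0.242 for bin 1 of Gabra5. Those of Gabra4 (bin 9), Gabra3 (bin 9), Gabra2 (bin 6) and Gabrb1 (bin 7) were 0.245, 0.345, 0.446 and 0.611.

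In the dentate gyrus 0 of 72 member bins were called, against 0.213% of 169072 bins tested, and 0 had an unadjusted p under 0.05, while limma-voom with diffSplice also called 0. The smallest p-values were 0.136 for bin 11 of Gabra3, 0.176 for bin 13 of Gabrd, 0.201 for bin 11 of Gabrb2, 0.332 for bin 9 of Gabra4, 0.346 for bin 10 of Gabra5, 0.593 for bin 7 of Gabra2 and 0.699 for bin 2 of Gabrb1. The levels of a gene's bins are given as multiples of the wild-type mean. The level of every tested Gabra4 bin was 1.79 to 2.17 times the wild-type Ammon's horn mean, of every tested Gabrd bin 1.98 to 3.02 times, and of every Gabra5 bin 0.876 to 1.05 times. Gabra3 bins ranged from 0.144 to 0.245 times. Of these, bins 13, 11 and 10 nearest the 5′ end, with 16, 26 and 27 reads in the dentate gyrus, were at 0.158, 0.144 and 0.153 times, and the large 3′ bin 1, with 339 reads, at 0.218 times.

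**Figure D4:**
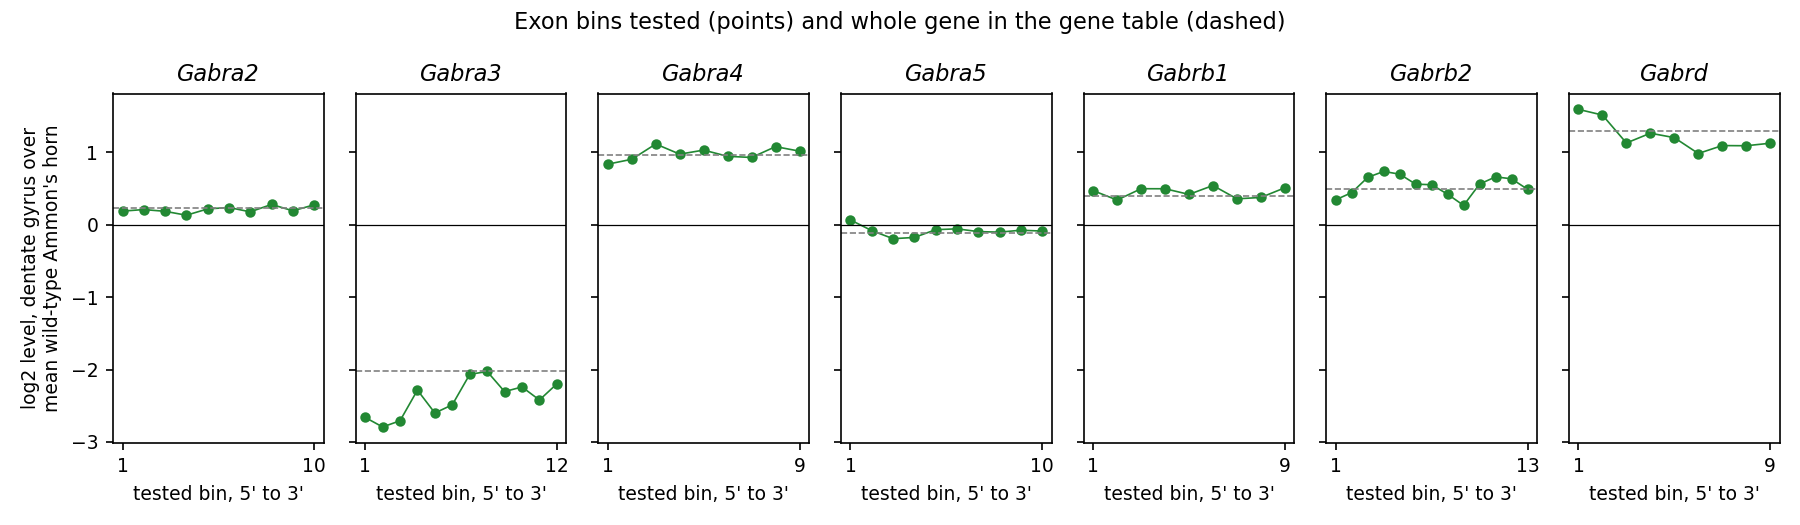
Level of each tested exon bin in the dentate gyrus over its mean in wild-type Ammon's horn (log2, y axis), with bins in order from 5′ to 3′ (x axis), 1 panel a gene; the dashed line is the log2 fold change of the gene table. Bins of a gene lie near each other, with the widest range in Gabra3 (0.144 to 0.245 times) and Gabrd (1.98 to 3.02 times).

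Several bins did not pass the filter, and they show which annotated pieces were barely read. Gabra3 has a 194-bp bin 15 at its annotated 5′ end (chromosome X, 72656655 to 72656848), which held 0 to 3 reads a library. Bin 13, a 180-bp non-coding piece from 72656007 to 72656186, held 74 to 106 reads in Ammon's horn and 16 in the dentate gyrus. Most Gabra3 reads at the 5′ end therefore lay in bin 13 and not in the outermost annotated exon. Gabrb2 has a 2128-bp non-coding bin 12 between coding exons, which held 4 to 9 reads a library, and a 129-bp bin 10 with 0 or 1 read.

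In Gabrd, 2 longer non-coding bins between coding exons, each found in 1 annotated transcript, held more reads in the dentate gyrus than in any Ammon's horn library. Bin 5 (chromosome 4, 155386559 to 155387153) held 4, 7 and 6 reads in the wild-type libraries of Ammon's horn, 4, 6 and 5 in the knockout ones and 29 in the dentate gyrus. It made up 0.999% ± 0.120 of the gene's bin reads in the wild type (SD, n = 3) and 2.24% (95% Clopper-Pearson interval 1.5 to 3.2%) in the dentate gyrus. Bin 3 (155386147 to 155386402) held 1, 0 and 1 reads in the wild type, 3, 5 and 0 in the knockout, and 13 reads in the dentate gyrus library. When bins with at least 5 reads in 3 libraries were tested, bin 5 of Gabrd had a usage log2 fold change of 1.13 (SE 0.39) in the dentate gyrus with an unadjusted p of 0.0171 and an adjusted p of 0.948 by edgeR, so it was not called.

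Promoter windows of RefSeq (GRCm38.p6, 250 bases before to 50 after each start) were found for 6 of the 7 members, 10 windows in all, with none for Gabrd. Those of Gabra4 and Gabra3 are shown because these alpha genes moved in opposite directions between the tissues and because exon reads bear on their starts. Each is on the minus strand and printed 5′ to 3′ as the coding strand, with every CG pair in capitals; the first is chr5:71658259-71658558 and the second chrX:72656758-72657057.
Gabra4: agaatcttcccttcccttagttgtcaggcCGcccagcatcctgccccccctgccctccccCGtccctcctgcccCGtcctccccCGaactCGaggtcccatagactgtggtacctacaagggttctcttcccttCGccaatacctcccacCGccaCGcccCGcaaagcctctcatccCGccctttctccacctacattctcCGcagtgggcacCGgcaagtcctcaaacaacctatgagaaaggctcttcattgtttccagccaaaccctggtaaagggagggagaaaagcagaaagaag
Gabra3: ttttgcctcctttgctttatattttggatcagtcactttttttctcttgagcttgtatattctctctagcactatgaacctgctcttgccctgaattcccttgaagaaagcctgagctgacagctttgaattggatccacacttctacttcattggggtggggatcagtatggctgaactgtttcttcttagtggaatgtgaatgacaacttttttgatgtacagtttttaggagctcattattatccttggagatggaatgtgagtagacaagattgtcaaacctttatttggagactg

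The Gabra4 window has 58.7% G or C and 12 CG pairs, and its start is the 5′ end of the gene in the count table. The Gabra3 window has 39.3% G or C and 0 CG pairs, against medians of 52.7% and 7 over all 32851 windows of that length. The motif GGGCGG, searched on both strands, was in 3 of the 10 member windows, among them that of Gabra4, and in 35.7% of all windows. TATAAA, also searched on both strands, was in 3 of 10 and in 13.6% of all windows. The 3 include both windows of Gabra3, which overlap and share a single match, so the member windows hold 2 distinct matches, the other in Gabrb2. Both RefSeq starts of Gabra3 lie 5′ of bin 13, in or beyond the outermost exon with 0 to 3 reads. The upstream RefSeq start of Gabrb1, at 71657921 on the plus strand, lies within the first exon of Gabra4 on the other strand (bin 9, 71657724 to 71658308). Whether counting used strand is not given in the sources used here, so reads of that bin cannot be assigned with certainty; its level in the dentate gyrus was 1.79 times that of wild-type Ammon's horn, against 1.87 to 2.17 times for the other 8 Gabra4 bins.

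Around the receptor, 54 other genes in 5 lists were read: 12 other GABA-A and rho subunits, 23 anchoring, trafficking and auxiliary proteins, 8 genes of GABA synthesis, transport and breakdown, 6 of the metabotropic GABA-B receptor and 5 of chloride transport. In the knockout 0 of 52 tested were called, with 0.384 as the smallest adjusted p. In the dentate gyrus 10 of 53 were called higher and 12 lower, against 11.2% and 10.9% of all genes. Their median log2 fold change was -0.12, against 0.39 for the 7 members and -0.01 for all genes. Members and lists were chosen with earlier results of these data known, so these medians are descriptive only. No list gene but Slc6a13 passed both the test and 2-fold.

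Of the other subunits, 2 of 11 were called higher and 1 lower, shares near the 11.2% and 10.9% of all genes. Gabrr3, a rho subunit, rose from a mean of 23.4 CPM in wild-type Ammon's horn to 43.2 CPM (log2 fold change 0.88), and Gabrg3, a gamma subunit, fell from 42.5 to 32.4 CPM (-0.39). Of the anchoring and trafficking genes, 5 of 23 were higher and 4 lower, against the same 11.2% and 10.9%. Hap1, which helps to recycle receptors to the surface, was higher (0.42), and Gabarap, a protein that binds gamma subunits in transit, was lower (-0.40). The related phospholipase C-like proteins moved apart, Plcl1 higher (0.42) and Plcl2 lower (-0.77).

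Of the genes that make, pack or clear GABA, 1 of 8 was higher, near the 11.2% of all genes, and 4 were lower, against 10.9%. Slc32a1, the vesicular GABA transporter, fell from 58.6 to 33.0 CPM (-0.83), Abat, which breaks GABA down, from 229 to 171 CPM (-0.42), and Gad2, a GABA-synthesising enzyme, from 112 to 91.1 CPM (-0.30). Gad1, the other GABA-synthesising enzyme, was not called, at a mean of 213 CPM in wild-type Ammon's horn and 214 CPM in the dentate gyrus (95% interval of the log2 fold change -0.22 to 0.23). Slc6a13, a plasma membrane GABA transporter typical of meninges, rose from 5.05 to 10.6 CPM (1.07). Of the GABA-B genes, Kctd16 (0.71) and Kctd12 (0.35), auxiliary subunits of that receptor, were higher and Kctd8 (-0.78), another of the same family, was lower. Of the chloride transport genes 0 of 5 were higher and 2 lower: Stk39 (-0.47), a kinase that activates the importer, and Slc12a2 (-0.34), the importer itself.

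**Figure D5:**
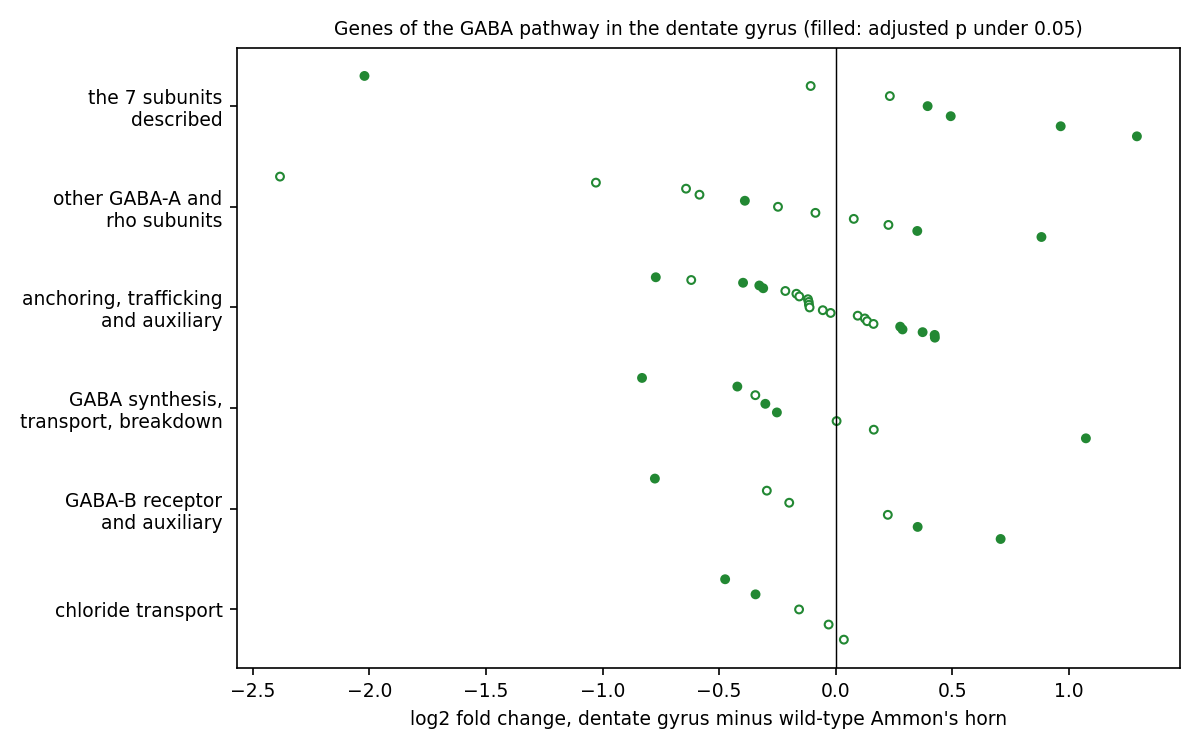
Log2 fold change (x axis) of the 7 subunits described and of the 53 tested genes of the 5 lists in the dentate gyrus against wild-type Ammon's horn, 1 point a gene, filled where the adjusted p was under 0.05. Gabra3 (-2.02) and Gabrd (1.29) are the farthest filled points on either side, and most list genes lie within 1 unit of 0.

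For each member, the most similar profiles over the 7 libraries were sought among 11890 protein-coding genes with a mean of at least 5 CPM, by the root mean square difference of centred log2 CPM. All genes share the same libraries and scaling, and 1 of the 7 libraries is from the dentate gyrus. Mtmr12 (0.02) and Ppfia2 (0.03) were nearest to Gabra4, and Tmem108 (0.07) and Tiam2 (0.08) to Gabrd. Ldb2 (0.09) and D830015G02Rik (0.10) were nearest to Gabra3, with levels in the dentate gyrus of 12.3 and 3.96 CPM against means of 45.5 and 17.3 CPM in wild-type Ammon's horn. Cnnm2 and Prdm11 (0.04 each) were nearest to Gabrb1, and Atf7ip (0.02) and Dennd4c (0.03) to Gabrb2. Pias1 and Pdpk1 (0.04 each) were nearest to Gabra2, and Amer1 and Capza1 (0.02 each) to Gabra5.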

How the data were processed

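The authors deposited raw counts in 2 forms, neither normalised: a table of counts per gene record and, for each library, a file of counts per exon bin. Per the labels' protocols, RNA was extracted with the Qiagen RNeasy Plus kit and libraries were made with the Illumina TruSeq mRNA kit. Tools are listed without roles in the submitters' processing notes: TopHat2 2.0.8b and Trim Galore 0.3.5, then DESeq2 1.0.19 and bedtools 2.17.0, with mm10 as the build. The gene table held a median of 1.60 times the reads of the summed bins over 14488 genes with at least 700 counts; the cause was not tested. A 10-bp bin of Gabrb2 held 46 to 100 reads, so reads appear to count in every bin they touch, which raises short bins.

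The gene test was edgeR 4.0.16 in R 4.3.3 (TMM, its own low-count filter, quasi-likelihood F test, Benjamini-Hochberg over all genes, called at 0.05). The knockout fit used 6 libraries and the dentate gyrus fit all 7 in 3 groups. Exon usage used diffSpliceDGE. Alternatives used limma 3.58.1 and DESeq2 1.42.0, and both scripts were tested on simulated data. Levels are TMM-scaled CPM. Bins of all 7 members were placed on mm10 by rebuilding them from GENCODE M21 models; coding sequences were aligned by codon with MAFFT 7.526. The members and lists were chosen with earlier results of these data known. Named were all members, for each the bin with the smallest p in each usage test, list genes called in the knockout, up to 4 called genes a list with the largest change in the dentate gyrus (not all are printed), and the 2 most similar genes a member.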

Additional observations from a re-analysis of the deposited data

How the results depend on the processing

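Of 182 refitted log2 fold changes of the 7 members (13 alternatives in each comparison), 173 kept their side of the threshold. The other 9 were losses of the Gabrb1 call in the dentate gyrus, where its log2 fold change ran from 0.32 to 0.53 and its adjusted p from 0.000560 to 0.104 (edgeR, limma-voom and DESeq2); the cause was not tested. Gabra3 (-2.31 to -1.95), Gabra4 (0.95 to 1.0), Gabrb2 (0.44 to 0.56) and Gabrd (1.21 to 1.33) were called in all 13. No member was called in the knockout in any of the 13, with signs that varied for 5 of the 7. At a threshold of 2-fold, 1 member (Gabrd) was called higher in the dentate gyrus. In the order of levels per length, 2 members changed place in wild-type Ammon's horn with the 83-bp exon and with coding bins, 2 in the knockout with coding bins, and 2 in the dentate gyrus with either. The 83-bp exon, the coding bins, the fit without knockout libraries 1 and 3 and the choroid plexus covariate in the dentate gyrus fit were chosen after the data were seen. No member bin was called in any of the 21 alternative usage fits. Over all genes, calls in the knockout numbered 17 and ran from 8 (exon-bin sums) to 117 (DESeq2), with 55 without knockout library 2; in the dentate gyrus they numbered 5392 and ran from 4251 to 5712. Over all bins they numbered 5 (4 to 8) and 360 (196, without wild-type library 1, to 553, with limma-voom). No paired analysis was possible because the labels give no replicate numbers. Depth limits the usage tests of bins with few reads, such as bin 13 of Gabrd (17 to 27 reads a library in Ammon's horn) and bin 13 of Gabra3 (16 reads in the dentate gyrus).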

Other observations

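The ratio of gene-table counts to summed bin reads differed between members. It was 1.46 to 1.53 for Gabra3 in the 6 Ammon's horn libraries and 1.87 in the dentate gyrus, where the gene was lowest. For Gabrb1, whose upstream annotated start and last 10648 bp of the M21 model lie outside the deposited gene record, it was 2.03 to 2.61 in Ammon's horn and 2.26 in the dentate gyrus. For Gabrd, the shortest gene, it was 1.1 to 1.18 in Ammon's horn and 1.22 in the dentate gyrus. Why the ratio differed between members, including any part of gene length or of the annotated gene ends, was not tested. On exon-bin sums the dentate gyrus log2 fold change of Gabra3 was -2.31 in place of -2.02.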
